A study of Arabidopsis thaliana with 8 samples.

Results

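Transcript levels were compared between skip-1 and wild type seedlings of Arabidopsis thaliana that had both received abscisic acid (ABA). The comparison rests on 4 of the 8 RNA sequencing libraries of the study, which were all those with the hormone: 2 of wild type (Columbia-0) and 2 of skip-1, each from 13-day-old seedlings after 3 h in 100 µM ABA. The other 4 libraries were of the same genotypes and age with 0 µM ABA, and they served for the spread between replicates and for the genotype difference without the hormone. Of 33674 features in the read count table, 21008 had enough reads to be tested. The seedlings were grown in long days. The labels give no lesion for skip-1 and do not say whether replicates came from separate cultures. The p-values therefore rest on the spread between these libraries alone, which may be technical. Only 1 mutant line was used, so the mutation and any other difference of that line from Columbia-0 cannot be told apart.

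SKIP is the plant relative of a conserved protein of the activated spliceosome, and it also acts in transcription together with the Paf1 complex. ABA is bound by PYR/PYL receptors, which then inhibit clade A PP2C phosphatases. This frees SnRK2 kinases to activate bZIP transcription factors that bind ABRE motifs upstream of dehydration genes, many of which code for late embryogenesis abundant (LEA) proteins and dehydrins. The question addressed by the comparison is how the transcriptome of the mutant differs once the hormone has been given. Counts per gene do not measure splicing.

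The SKIP gene, AT1G77180 on the minus strand of chromosome 1 (28999577 to 29002143 in TAIR10.1), stood at 136 and 161 CPM in wild type and 108 and 125 CPM in skip-1. CPM are counts scaled to a common library size after adjustment by trimmed means (TMM). Both skip-1 libraries lay below both wild type libraries, but the log2 fold change of −0.35 ± 0.15 (standard error, SE) did not pass the threshold (edgeR adjusted p = 0.1). It did pass in a fit blocked by replicate number, as the closing section gives. Without the lesion this level is no check of the labels.

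Differences between the genotypes were found across much of the transcriptome. At an adjusted p below 0.05 (edgeR quasi-likelihood F test, Benjamini-Hochberg), 6504 features were called, 31.0% of those tested. Of these, 2855 (13.6%) were higher in skip-1 and 3649 (17.4%) were lower, and 2258 (10.7%) differed at least 2-fold, 1182 (5.63%) higher and 1076 (5.12%) lower. The median log2 fold change over all tested features was −0.02. Higher features made up 43.9% of the calls with TMM scaling, 62.6% with scaling by library size only and 55.4% with upper-quartile scaling, so the balance of directions over all genes depended on the scaling. Scaling by library size only moved the median of all features to 0.12, and directions below are relative to the TMM scale. Both skip-1 libraries lay above both wild type libraries for 6863 features (32.7%) and below them for 7788 (37.1%). Groups without overlap were therefore common. Where stated below for named genes, which were picked by their values, this only describes the libraries. Leaving out 1 ABA library reduced the calls to 3521 without wild type replicate 1, 3937 without wild type replicate 2, 3544 without skip-1 replicate 1 and 3794 without skip-1 replicate 2. For gene lists, counts with 1 ABA library left out are given below in this same order. The counts called in each list stand beside the 13.6% of all tested features called higher and the 17.4% called lower. These shares varied with the level of genes, as given below with exon number.

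**Figure D1:**
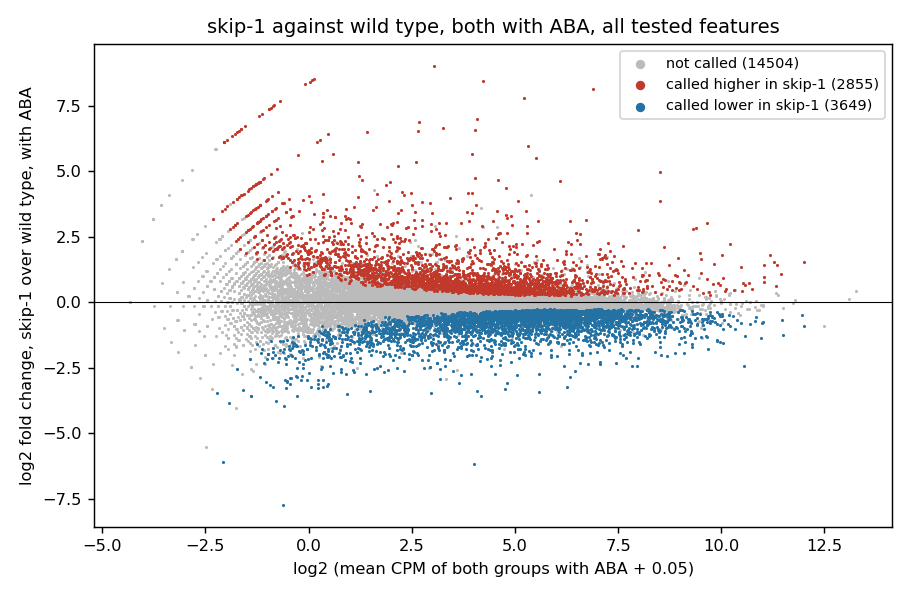
Log2 fold change of skip-1 over wild type with ABA (vertical axis) against log2 of the mean CPM of both groups plus 0.05 (horizontal axis) for each of the 21008 tested features. Red points are the 2855 features called higher in skip-1, blue points the 3649 called lower, and grey points the rest. Blue points are most frequent at the right, among genes with many reads.

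The libraries held 20870110 and 22258628 counted reads in wild type with ABA and 21654833 and 22017597 in skip-1 with ABA. Across genes, log2 CPM correlated at 0.987 or more between the replicates of a genotype and at 0.953 or less between genotypes. Chloroplast genes took 0.544% and 0.551% of the counts in wild type and 0.743% and 0.831% in skip-1. Whole seedlings were sequenced, so fewer cells of a type and less RNA per cell cannot be told apart. Of 5 mesophyll markers, 4 were called higher (3, 1, 1 and 4 with 1 library left out), and their summed level was 12603 and 10401 CPM in wild type and 18066 and 16565 CPM in skip-1. Of these markers, 4 also stand in the light-harvesting list below, and their part in the results on leaf genes was not tested. Of 8 guard cell markers, 1 was higher, and their sums lay close together without overlap, at 89.7 and 97.4 CPM in wild type and 106 and 97.9 CPM in skip-1. Of 15 root markers, 1 was lower and none higher on the TMM scale, whereas 2 were higher and none lower with library-size scaling, and their sums overlapped, at 206 and 166 CPM in wild type and 169.7 and 212 CPM in skip-1. The 9 stomatal lineage markers gave 1 higher and 1 lower, with sums of 53.7 and 55.3 CPM in wild type and 59.3 and 60.6 CPM in skip-1. Floral organ markers summed to 28.4 and 24.7 CPM in wild type and 16.8 and 18.3 CPM in skip-1 over 8 genes, 4 of them tested, and SEP3 was called lower. Seed markers were close to absent, with sums of 5.59 and 7.1 CPM in wild type and 1.59 and 2.95 CPM in skip-1 over 10 genes, and the storage protein genes CRB, CRC and SESA3 had no read in any ABA library.

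Genes of the dehydration response were lower in skip-1. Of 25 LEA, dehydrin and cold- or drought-induced genes, 16 were called lower and none higher, against 17.4% and 13.6% of all tested features. Their median log2 fold change was −0.80, beside −0.02 over all features, and 24 of the 25 had a value below 0. The number called lower was 10, 10, 11 and 9 with 1 ABA library left out, and it was 16 under each of the 3 other scalings tried. The 9 members that did not pass ranged from −0.98 (LTP4) to 0.03 (CLO4). Members of the list were chosen as ABA-responsive genes with earlier results of these data known.

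LEA18, annotated as a group 1 LEA protein gene, was at 96.1 and 70.6 CPM in wild type and 14.2 and 10.9 CPM in skip-1 (−2.74 ± 0.24, edgeR adjusted p = 0.000468). RD29B, a widely used ABA reporter gene, was at 758 and 739.5 CPM in wild type and 225 and 161 CPM in skip-1 (−1.96 ± 0.31, adjusted p = 0.00514). LEA14 was at 1692 and 1435 CPM in wild type and 554 and 513 CPM in skip-1 (−1.55 ± 0.14, adjusted p = 0.000372). In all of these the skip-1 libraries lay far below both wild type libraries, with no overlap. LEA4-5 was at 811 and 826 CPM in wild type and 282 and 292 CPM in skip-1 (−1.51 ± 0.24, adjusted p = 0.00365). The dehydrin gene ERD10 was at 4097 and 3985 CPM in wild type and 1613 and 1759.7 CPM in skip-1 (−1.26 ± 0.24, adjusted p = 0.00698), and the dehydrin gene LTI30 was at 1003 and 954 CPM in wild type and 551 and 508 CPM in skip-1 (−0.89 ± 0.11, adjusted p = 0.00112). COR413-PM1, which codes for a cold-regulated membrane protein, was at 2642 and 2508 CPM in wild type and 1595 and 1456 CPM in skip-1 (−0.76 ± 0.11, adjusted p = 0.00182). The groups of all 4 were apart. COR47, another dehydrin gene, had one of the largest losses in reads, at 5349 and 5292 CPM in wild type and 2782 and 2956 CPM in skip-1 (−0.89 ± 0.25, adjusted p = 0.0289). The call of COR47 was lost without any 1 of the 4 ABA libraries, where adjusted p reached at most 0.125. Per length, COR47 stood at 3985 and 3983 FPKM in wild type and 2314 and 2424 FPKM in skip-1, and ERD10 at 2459 and 2416 FPKM in wild type and 1081 and 1163 FPKM in skip-1 (FPKM, the authors' fragments per kilobase of gene, scaled by library size only). On that scale COR47 was above ERD10 in every ABA library.

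The 4 LEA-list genes with the smallest adjusted p are shown with the 250 bases before their annotated start (RefSeq, TAIR10.1), since ABA-activated factors act through motifs in such regions. Bases in capitals are the ABRE core ACGTG or the DRE core CCGAC, read on either strand, so that CACGT and GTCGG also appear. The coordinates are chr1:172949-173198, minus strand, for LEA14, chr2:14863413-14863662, minus strand, for LEA18, chr3:18940393-18940642, plus strand, for LTI30, and chr2:6949601-6949850, plus strand, for COR413-PM1.
LEA14: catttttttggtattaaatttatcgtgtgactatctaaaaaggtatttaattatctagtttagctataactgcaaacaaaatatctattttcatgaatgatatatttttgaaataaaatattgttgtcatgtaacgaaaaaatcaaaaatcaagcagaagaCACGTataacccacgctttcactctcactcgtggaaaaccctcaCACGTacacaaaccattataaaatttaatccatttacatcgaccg
LEA18: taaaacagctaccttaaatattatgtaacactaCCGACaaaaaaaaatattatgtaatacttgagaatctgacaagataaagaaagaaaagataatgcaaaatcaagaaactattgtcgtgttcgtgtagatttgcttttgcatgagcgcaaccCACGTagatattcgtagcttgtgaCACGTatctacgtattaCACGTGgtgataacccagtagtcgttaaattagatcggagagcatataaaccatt
LTI30: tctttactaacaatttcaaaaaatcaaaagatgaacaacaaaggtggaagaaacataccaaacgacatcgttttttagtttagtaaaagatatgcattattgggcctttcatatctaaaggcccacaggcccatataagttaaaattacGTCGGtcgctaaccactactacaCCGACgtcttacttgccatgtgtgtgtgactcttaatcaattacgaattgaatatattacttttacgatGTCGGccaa
COR413-PM1: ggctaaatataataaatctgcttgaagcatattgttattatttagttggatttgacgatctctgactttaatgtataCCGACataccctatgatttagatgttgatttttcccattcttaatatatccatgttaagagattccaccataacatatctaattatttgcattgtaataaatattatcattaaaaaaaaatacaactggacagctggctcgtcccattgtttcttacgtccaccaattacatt
LEA14 had 2 ABRE cores, which began 89 and 45 bases before the start, and no DRE core. LEA18 had 4 matches to the ABRE core, of which a pair was the palindrome CACGTG read on both strands, and 1 DRE core. LTI30 had 3 DRE cores and COR413-PM1 had 1, and neither had an ABRE core in this window, which says nothing of the factor. The ABRE core was present before 11 of the 16 LEA-list genes called lower and before 24.1% of 20277 tested protein-coding genes. The list was chosen as ABA-responsive genes, and list members not called were not counted, so its share says nothing of skip-1. Over all calls, the ABRE core was present before 28.8% of genes lower and 24.7% of genes higher in skip-1. It was present before 32.5% of genes at least 2-fold lower and before 30.4% of genes at least 2-fold higher in skip-1. The DRE core stood before 6 of the 16 and before 12.9% of all. A match is a description of the letters and not a bound site.

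Of 14 ABA receptor genes, 9 were tested, and 2 were called higher and 2 lower, shares near the 13.6% and 17.4% of all tested features, with a median of 0.09. PYR1 was at 22.5 and 23.2 CPM in wild type and 18.1 and 13.5 CPM in skip-1 (−0.53 ± 0.15, adjusted p = 0.0255). PYL8 was at 30.7 and 38.8 CPM in wild type and 54.8 and 52.2 CPM in skip-1 (0.62 ± 0.16, adjusted p = 0.0189). PYR1 thus lay lower and PYL8 higher in skip-1, each without overlap. The call of PYR1 was lost without wild type ABA replicate 1, wild type ABA replicate 2 or skip-1 ABA replicate 2, where adjusted p reached at most 0.141, and also with library-size scaling and in a fit of the ABA libraries alone. The call of PYL8 was lost without wild type ABA replicate 1, skip-1 ABA replicate 1 or skip-1 ABA replicate 2, where adjusted p reached at most 0.12. With library-size scaling no receptor was called lower. Leaving out 1 library left 0, 1, 0 and 1 receptors higher and 0, 1, 2 and 0 lower.

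Of 9 clade A PP2C phosphatase genes, which repress the kinases, 4 were called lower and none higher, with a median of −0.47. The count was 2, 0, 1 and 3 with 1 library left out and 2 with library-size scaling. HAB1 was at 582 and 686 CPM in wild type and 274 and 381 CPM in skip-1 (−0.95 ± 0.19, adjusted p = 0.00904). HAB2 was at 165 and 176 CPM in wild type and 122 and 132 CPM in skip-1 (−0.42 ± 0.09, adjusted p = 0.0107). The groups of both genes were apart. The call of HAB1 was lost without wild type ABA replicate 2, where adjusted p reached at most 0.0545. The call of HAB2 was lost without wild type ABA replicate 2 or skip-1 ABA replicate 1, where adjusted p reached at most 0.0782, and also with library-size scaling. ABI1 and PP2CA, with log2 fold changes of −0.11 and 0.18, did not pass.

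Among 10 SnRK2 kinase genes, 2 were called higher and 4 lower (3, 3, 2 and 2 lower with 1 library left out, and 2 each way with library-size scaling). SNRK2.4 was at 66.3 and 64.1 CPM in wild type and 40.4 and 37.3 CPM in skip-1 (−0.75 ± 0.10, adjusted p = 0.0014), and SNRK2.10 was at 128 and 148 CPM in wild type and 84.7 and 83.0 CPM in skip-1 (−0.72 ± 0.11, adjusted p = 0.00249). Both belong to the kinases activated by osmotic stress without ABA, and both were lower without overlap. SNRK2.3, one of the main ABA-activated kinases, was at 26.3 and 23.4 CPM in wild type and 55.6 and 51.3 CPM in skip-1 (1.1 ± 0.13, adjusted p = 0.00083). SNRK2.8 was at 1.34 and 1.83 CPM in wild type and 10.2 and 6.54 CPM in skip-1 (2.4 ± 0.37, adjusted p = 0.00301). These 2 were the members called higher. Among all tested features, 13.6% were called higher and 17.4% lower. OST1, the main stomatal kinase, and SNRK2.2, at −0.31 ± 0.11 and −0.31 ± 0.14, did not pass (adjusted p = 0.0558 and 0.123).

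Of 9 tested genes for ABA-responsive bZIP and related factors and for AFP proteins, which bind and repress ABI5, 5 were called lower and none higher, with a median of −0.77 (3, 3, 3 and 4 lower with 1 library left out). With library-size or upper-quartile scaling 3 were lower. ABI5 was at 47.9 and 55.6 CPM in wild type and 13.3 and 17.1 CPM in skip-1 (−1.77 ± 0.19, adjusted p = 0.00059). ABF2 was at 190.5 and 226 CPM in wild type and 84.8 and 109 CPM in skip-1 (−1.1 ± 0.16, adjusted p = 0.00212). AFP4 was at 163 and 155 CPM in wild type and 46.0 and 67.8 CPM in skip-1 (−1.48 ± 0.24, adjusted p = 0.00431). These 3 genes lay lower in both skip-1 libraries. ABF1 and ABF4 were the members above 0, at 0.19 ± 0.14 and 0.12 ± 0.12, and did not pass (adjusted p = 0.321 and 0.451). ABI4 had no read in any ABA library.

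Of 21 other stress-induced transcription factor genes, 8 were called lower and 1 higher (4, 5, 5 and 6 lower with 1 library left out). CBF4, a drought-induced activator of dehydration genes, was at 9.55 and 18.7 CPM in wild type and 0.911 and 1.64 CPM in skip-1 (−3.46 ± 0.56, adjusted p = 0.00624). MYB74 was at 150.5 and 152 CPM in wild type and 47.8 and 67.6 CPM in skip-1 (−1.39 ± 0.18, adjusted p = 0.00136). The zinc finger gene ZAT10 was at 47.9 and 51.0 CPM in wild type and 22.1 and 25.4 CPM in skip-1 (−1.06 ± 0.18, adjusted p = 0.00367), and MYB44 was at 482 and 393 CPM in wild type and 167 and 200.5 CPM in skip-1 (−1.25 ± 0.21, adjusted p = 0.00406). CBF2, known from the cold response, was the member called higher, at 1.24 and 1.83 CPM in wild type and 4.28 and 4.86 CPM in skip-1 (1.58 ± 0.29, adjusted p = 0.00514). The groups did not overlap in any of these 5 genes, as in 32.7% (skip-1 above) and 37.1% (skip-1 below) of all tested features.

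ABA metabolism gave 3 higher and 2 lower of 16 tested genes (4, 3, 3 and 3 higher with 1 library left out). BGLU18, whose enzyme releases ABA from its glucose ester, was at 162 and 189 CPM in wild type and 1242 and 1634 CPM in skip-1 (3.04 ± 0.15, adjusted p = 6.62e-05). CYP707A4, of ABA breakdown, was at 17.3 and 12.4 CPM in wild type and 29.0 and 37.4 CPM in skip-1 (1.16 ± 0.22, adjusted p = 0.00607), and ABA2, of ABA synthesis, at 10.2 and 8.83 CPM in wild type and 23.8 and 17.3 CPM in skip-1 (1.1 ± 0.18, adjusted p = 0.00284). AAO3, which codes for the oxidase of the last step of synthesis, was lower, at 96.6 and 101 CPM in wild type and 48.4 and 55.3 CPM in skip-1 (−0.93 ± 0.13, adjusted p = 0.00168). Genes of synthesis therefore lay on both sides. Shares called in this list were near the 13.6% higher and 17.4% lower of all tested features. Of 14 genes for proline, galactinol and raffinose, 2 were higher and 1 lower (1, 1, 2 and 1 higher and 0, 1, 0 and 3 lower with 1 library left out). The share of this list called was below the 31.0% of all tested features. P5CS1, of proline synthesis, was at −0.47 ± 0.25 and did not pass (edgeR adjusted p = 0.194).

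Heat shock genes were lower in skip-1, where 17.4% of all tested features were called lower and 13.6% higher. Of 21 tested, 14 were called lower and none higher, with a median of −1.21 (13, 12, 12 and 11 lower with 1 library left out). With library-size or upper-quartile scaling 13 were lower and 1 higher. HSP17.6II, a small heat shock protein gene, was at 14.8 and 29.6 CPM in wild type and 3.01 and 2.18 CPM in skip-1 (−3.09 ± 0.38, adjusted p = 0.0013). HSP90.1 was at 234 and 131 CPM in wild type and 38.1 and 33.8 CPM in skip-1 (−2.34 ± 0.33, adjusted p = 0.00348), and HSP101, of protein disaggregation, at 62.0 and 41.6 CPM in wild type and 16.8 and 13.3 CPM in skip-1 (−1.79 ± 0.23, adjusted p = 0.00161). The wild type replicates stood far apart in HSP17.6II and HSP90.1, and both were above both skip-1 libraries. HSP22.0 was at 12.6 and 16.2 CPM in wild type and 2.96 and 2.73 CPM in skip-1 (−2.34 ± 0.23, adjusted p = 0.000468). The heat stress factor gene HSFA6B, which ABA is known to induce, was at 449 and 376 CPM in wild type and 88.0 and 98.8 CPM in skip-1 (−2.14 ± 0.34, adjusted p = 0.00563). AT1G07400, an HSP20-like chaperone gene outside the list and among the largest decreases, was at 112 and 63.4 CPM in wild type and 7.88 and 8.5 CPM in skip-1 (−3.42 ± 0.31, adjusted p = 0.000663). Counts of small heat shock genes that share near-identical stretches are uncertain.

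Aquaporin genes, which code for water channels of the plasma membrane (PIP) and the vacuole (TIP), were mostly lower. Of 19, 11 were called lower and 1 higher, with a median of −0.54 (9, 8, 10 and 7 lower with 1 library left out). With library-size scaling 9 were lower and 3 higher. On the TMM scale 17.4% of all tested features were called lower and 13.6% higher. PIP2;3 was at 353 and 281 CPM in wild type and 74.6 and 81.5 CPM in skip-1 (−2.02 ± 0.13, adjusted p = 9.15e-05). PIP2B was at 535 and 555 CPM in wild type and 179.7 and 199 CPM in skip-1 (−1.52 ± 0.11, adjusted p = 0.000162), and GAMMA-TIP at 1434 and 1347 CPM in wild type and 494 and 514 CPM in skip-1 (−1.46 ± 0.11, adjusted p = 0.000163). In each the skip-1 level was under the wild type level in all pairings of libraries. TIP2;2 was at 295 and 286 CPM in wild type and 110.2 and 83.2 CPM in skip-1 (−1.59 ± 0.18, adjusted p = 0.000883). TIP1;2 was the member called higher, at 777 and 772 CPM in wild type and 1189 and 1255 CPM in skip-1 (0.66 ± 0.15, adjusted p = 0.0111). The call of TIP1;2 was lost without wild type ABA replicate 1, wild type ABA replicate 2 or skip-1 ABA replicate 2, where adjusted p reached at most 0.0624. PIP2;3 and PIP2B are close paralogs, so reads they share are uncertain.

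**Figure D2:**
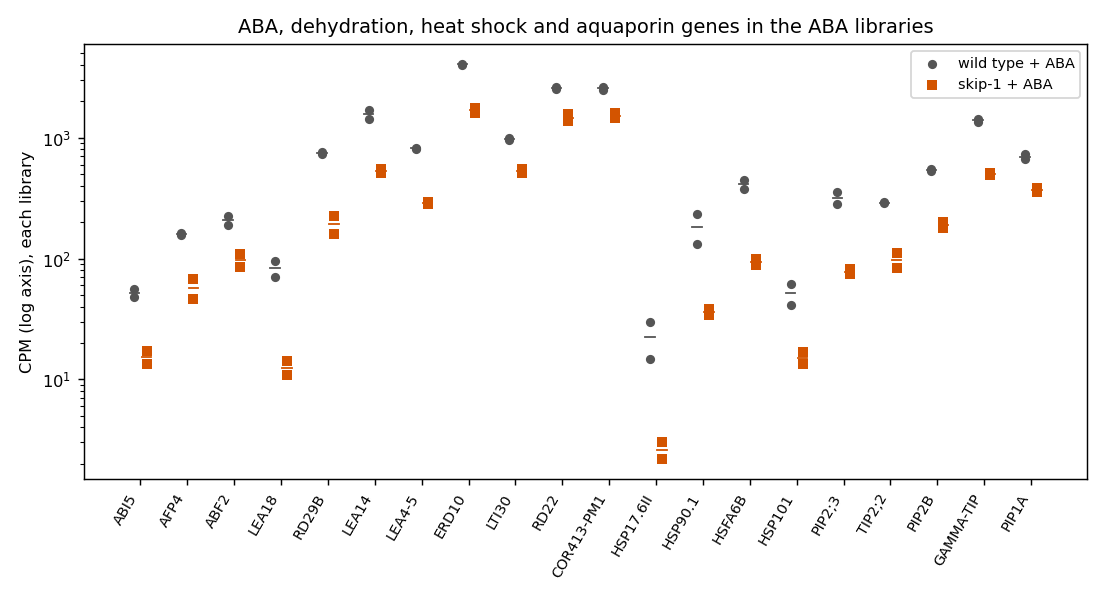
CPM of 20 listed genes in each library with ABA, on a log axis. Grey circles are the 2 wild type libraries, orange squares the 2 skip-1 libraries, and short lines the group means. In all 20 genes both skip-1 libraries lie below both wild type libraries.

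Iron deficiency genes were among the largest increases in skip-1. Plants low in iron induce a set of bHLH factors, which switch on the iron transporter IRT1, ferric reductases and nicotianamine synthases, while ferritin genes are kept low. Of 12 tested regulators, 7 were called higher and 1 lower, with a median of 1.25 (7, 7, 7 and 7 higher with 1 library left out). The regulator called lower was ILR3 (−0.36 ± 0.11). The call of ILR3 was lost without any 1 of the 4 ABA libraries or skip-1 mock replicate 2, where adjusted p reached at most 0.22, and also with RLE scaling, with library-size scaling, with upper-quartile scaling, by DESeq2 and in a fit of the ABA libraries alone. bHLH38 was at 0.396 and 0.261 CPM in wild type and 85.9 and 62.9 CPM in skip-1 (7.79 ± 0.70, adjusted p = 0.000922). bHLH39 was at 0.198 and 0.313 CPM in wild type and 40.9 and 25.9 CPM in skip-1 (7.01 ± 0.72, adjusted p = 0.00143), and bHLH101 at 0.0495 and 0.313 CPM in wild type and 25.0 and 12.5 CPM in skip-1 (6.68 ± 0.97, adjusted p = 0.0044). All 3 were close to 0 in both wild type libraries and far above that in both skip-1 libraries. bHLH100 was at 0.198 and 0 CPM in wild type and 41.4 and 33.6 CPM in skip-1, with a fitted value of 8.45 that depends on the prior count. BTS, an E3 ligase gene that restrains the response, was at 141 and 121 CPM in wild type and 327 and 331 CPM in skip-1 (1.33 ± 0.21, adjusted p = 0.00376), and PYE was at 12.8 and 16.1 CPM in wild type and 35.6 and 29.8 CPM in skip-1 (1.18 ± 0.19, adjusted p = 0.00297). Regulators that promote and that restrain the response were thus both higher. FIT, another gene of the iron deficiency response, was low and overlapped, at 0.191 and 0.733 FPKM in wild type and 0.510 and 0.232 FPKM in skip-1.

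Of 20 genes for iron uptake, coumarins and nicotianamine, 11 were called higher and 3 lower, with a median of 0.94 (7, 8, 7 and 7 higher with 1 library left out). IRT1 had 1 read over both wild type libraries and 713 over both skip-1 libraries, a ratio of 638-fold (95% counting interval 114 to 25242). NAS2, a nicotianamine synthase gene, was at 0.297 and 0.313 CPM in wild type and 7.65 and 6.27 CPM in skip-1 (4.49 ± 0.38, adjusted p = 0.000272). OPT3, of iron transport in the phloem, was at 174 and 125 CPM in wild type and 409 and 439 CPM in skip-1 (1.5 ± 0.17, adjusted p = 0.000834). The ferric reductase gene FRO3 was at 44.3 and 33.2 CPM in wild type and 104 and 113 CPM in skip-1 (1.48 ± 0.20, adjusted p = 0.00194). Each of these was higher in both skip-1 libraries. The 3 members called lower were YSL1, F6'H1 and AHA2, at −1.44, −0.77 and −0.66. The call of YSL1 was lost without wild type ABA replicate 2, skip-1 ABA replicate 1 or skip-1 ABA replicate 2, where adjusted p reached at most 0.0671. The call of F6'H1 was lost without wild type ABA replicate 2, skip-1 ABA replicate 1 or skip-1 ABA replicate 2, where adjusted p reached at most 0.0779. The call of AHA2 was lost without wild type ABA replicate 1 or skip-1 ABA replicate 1, where adjusted p reached at most 0.118. YSL1 codes for a transporter of iron bound to nicotianamine, F6'H1 for an enzyme of coumarin synthesis and AHA2 for a proton pump. FRO6, a ferric reductase gene of shoots, was not on the list and was among the largest increases, at 2.03 and 2.66 CPM in wild type and 32.7 and 28.9 CPM in skip-1 (3.72 ± 0.18, adjusted p = 6.62e-05).

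Iron storage genes lay on the other side. Of 7 tested, 4 were called lower and none higher, with a median of −1.2 (4, 3, 3 and 2 lower with 1 library left out). The ferritin gene FER3 was at 90.4 and 121 CPM in wild type and 34.3 and 36.1 CPM in skip-1 (−1.58 ± 0.15, adjusted p = 0.0004), and FER4 was at 36.6 and 47.2 CPM in wild type and 7.88 and 8.18 CPM in skip-1 (−2.38 ± 0.32, adjusted p = 0.00242). FER1 was at 232 and 386 CPM in wild type and 141 and 118 CPM in skip-1 (−1.25 ± 0.27, adjusted p = 0.0146). Groups were apart in all 3 ferritin genes. The call of FER1 was lost without skip-1 ABA replicate 1 or skip-1 ABA replicate 2, where adjusted p reached at most 0.0802. NEET, which codes for an iron-sulfur protein, was among the largest decreases, at 38.6 and 27.7 CPM in wild type and 2.78 and 2.73 CPM in skip-1 (−3.59 ± 0.24, adjusted p = 0.000125).

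Light-harvesting genes, which code for the chlorophyll-binding antenna proteins, were higher in skip-1, and LHCB1.5, LHCA4 and LHCB1.2 had the largest gains in CPM of all called features. Of 25 genes for light harvesting and Rubisco, 17 were called higher and 1 lower, with a median of 1.08 (17, 13, 15 and 17 higher with 1 library left out). LHCB4.2 was at 325 and 290.2 CPM in wild type and 1206 and 1058 CPM in skip-1 (1.88 ± 0.12, adjusted p = 0.000114). LHCA4 was at 1220.3 and 866 CPM in wild type and 3822 and 3415 CPM in skip-1 (1.79 ± 0.20, adjusted p = 0.000813), and LHCB1.5 at 2453 and 1734 CPM in wild type and 6149.5 and 6076 CPM in skip-1 (1.55 ± 0.17, adjusted p = 0.000663). The skip-1 libraries were above the wild type libraries in each, and wild type replicate 1 was above wild type replicate 2. RCA, the gene of Rubisco activase, was at 1949.7 and 1659 CPM in wild type and 3977 and 3628 CPM in skip-1 (1.08 ± 0.15, adjusted p = 0.00152). LHCB1.2 was at 1532 and 1026 CPM in wild type and 3725 and 3647 CPM in skip-1 (1.53 ± 0.19, adjusted p = 0.00107) and LHCA1 at 1306 and 956 CPM in wild type and 3184 and 2947 CPM in skip-1 (1.44 ± 0.19, adjusted p = 0.0014). RBCS1B, a small subunit gene of Rubisco, was the member called lower, at 466 and 533 CPM in wild type and 362 and 329 CPM in skip-1 (−0.53 ± 0.12, adjusted p = 0.0137). The call of RBCS1B was lost without wild type ABA replicate 2 or skip-1 ABA replicate 2, where adjusted p reached at most 0.0883, and also with library-size scaling. Close paralogs in the LHCB1, LHCB2 and RBCS families share reads. Per length, LHCB1.5 stood at 2132 and 1522 FPKM in wild type and 5967 and 5813 FPKM in skip-1.

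Of 21 genes of chlorophyll synthesis and breakdown, 9 were called higher and 6 lower (8, 7, 7 and 10 higher and 4, 3, 3 and 4 lower with 1 library left out). The 9 higher genes act in synthesis and the 6 lower genes in breakdown, a division noted after the values were seen. CAO, which makes chlorophyll b, was at 57.7 and 45.9 CPM in wild type and 230.1 and 197 CPM in skip-1 (2.04 ± 0.20, adjusted p = 0.000604). CRD1 was at 394 and 315 CPM in wild type and 1203 and 1015 CPM in skip-1 (1.65 ± 0.18, adjusted p = 0.000651), and GUN5, a subunit of magnesium chelatase, at 453 and 461 CPM in wild type and 1063 and 923 CPM in skip-1 (1.12 ± 0.13, adjusted p = 0.000828). These synthesis genes were at least 2-fold higher. PAO, of chlorophyll breakdown, was at 353 and 323 CPM in wild type and 121 and 128 CPM in skip-1 (−1.44 ± 0.17, adjusted p = 0.000955), and NOL at 30.9 and 29.6 CPM in wild type and 17.4 and 14.5 CPM in skip-1 (−0.92 ± 0.12, adjusted p = 0.0013). Both breakdown genes lay lower without overlap. CLH1, a chlorophyllase gene of the jasmonate output list, was higher, at 22.2 and 36.1 CPM in wild type and 106 and 198 CPM in skip-1 (2.38 ± 0.38, adjusted p = 0.00615).

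**Figure D3:**
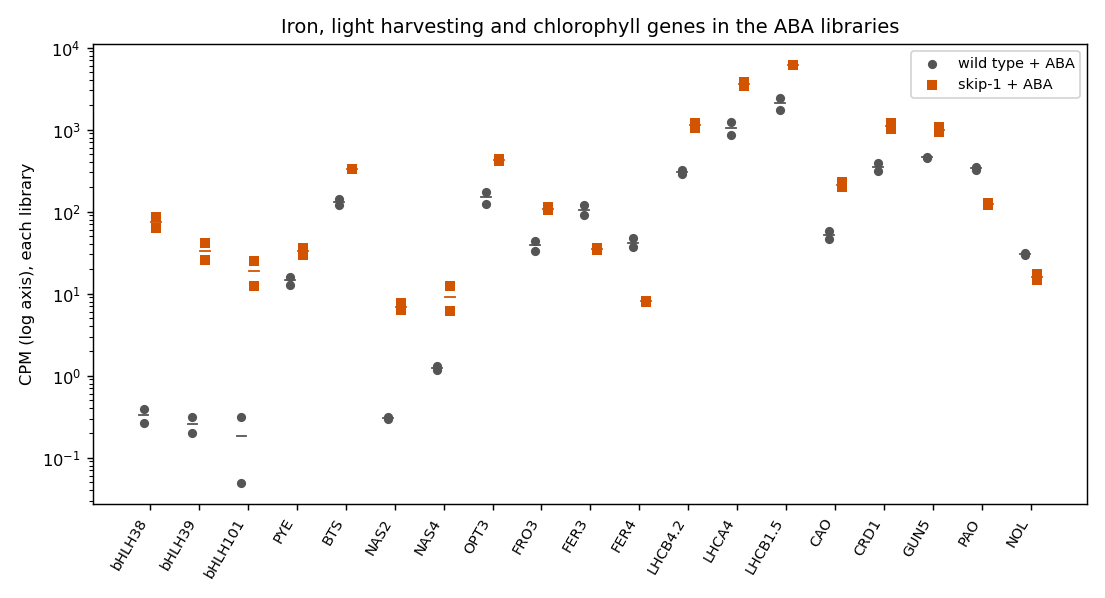
CPM of 19 genes of iron, light harvesting and chlorophyll in each library with ABA, on a log axis. Grey circles are the 2 wild type libraries, orange squares the 2 skip-1 libraries, and short lines the group means. The skip-1 libraries lie above wild type in all but FER3, FER4, PAO and NOL, where they lie below.

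Jasmonate genes were higher. Of 13 tested genes of jasmonate synthesis, 8 were called higher and none lower, with a median of 1.25. The count was 2, 3, 8 and 2 with 1 library left out. AOS, of the committed step, was at 209 and 255 CPM in wild type and 538 and 713 CPM in skip-1 (1.43 ± 0.22, adjusted p = 0.00302), and OPR3 at 63.8 and 63.3 CPM in wild type and 169 and 279.7 CPM in skip-1 (1.82 ± 0.21, adjusted p = 0.0011). LOX2 had one of the largest gains in reads, at 1132 and 1708 CPM in wild type and 3423 and 4172 CPM in skip-1 (1.42 ± 0.41, adjusted p = 0.0414). The call of LOX2 was lost without any 1 of the 4 ABA libraries or skip-1 mock replicate 1, where adjusted p reached at most 0.175, and also with no filter and with the replicate block. All 3 genes were higher in both skip-1 libraries. Of 23 tested genes for JAZ repressors and jasmonate output, 11 were higher and 1 lower, with a median of 0.85 (8, 10, 11 and 10 higher with 1 library left out). JAZ9 was at 59.4 and 70.1 CPM in wild type and 339.6 and 545 CPM in skip-1 (2.77 ± 0.22, adjusted p = 0.00036), and JAZ6 at 25.1 and 27.4 CPM in wild type and 104 and 154 CPM in skip-1 (2.3 ± 0.18, adjusted p = 0.000216). VSP1, a storage protein gene induced by jasmonate, was at 37.0 and 49.99 CPM in wild type and 109 and 141 CPM in skip-1 (1.52 ± 0.18, adjusted p = 0.00116). In both JAZ genes skip-1 replicate 2 was the highest library. JAZ11 was the member called lower, at 40.7 and 33.0 CPM in wild type and 20.7 and 18.5 CPM in skip-1 (−0.91 ± 0.13, adjusted p = 0.00174).

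Glucosinolate genes, for defence compounds of the mustard family, were higher by smaller steps. Of 27 tested, 15 were called higher and none lower, with a median of 0.55 (9, 10, 12 and 10 higher with 1 library left out). MAM3, which lengthens methionine side chains, was at 16.6 and 19.4 CPM in wild type and 50.7 and 53.8 CPM in skip-1 (1.54 ± 0.12, adjusted p = 0.000188). CYP79B2, of indole glucosinolate synthesis, was at 149 and 149 CPM in wild type and 257 and 262 CPM in skip-1 (0.80 ± 0.10, adjusted p = 0.00126), and SUR1 at 124 and 115 CPM in wild type and 191 and 199 CPM in skip-1 (0.70 ± 0.10, adjusted p = 0.00149). The replicates of each genotype were close and the genotypes apart in these genes. Of 24 salicylate and defence genes, 8 were higher and 1 lower (4, 4, 5 and 5 higher with 1 library left out). PR2, a glucanase gene of the defence response, was at 1.73 and 1.1 CPM in wild type and 5.74 and 8.27 CPM in skip-1 (2.3 ± 0.38, adjusted p = 0.00343), and WRKY60 was the member called lower (−0.97 ± 0.19, adjusted p = 0.00589). Of 31 tested cysteine-rich receptor kinases, 5 were higher and 5 lower (4, 3, 4 and 3 higher and 3, 4, 1 and 4 lower with 1 library left out), shares near those of all tested features (13.6% and 17.4%), with CRK4 at 0.297 and 0.209 CPM in wild type and 3.46 and 1.59 CPM in skip-1 (3.29 ± 0.52, adjusted p = 0.00271). Of 24 tested flavonoid and anthocyanin genes, 4 were higher and 1 lower, against 13.6% and 17.4% of all tested features. Without either wild type mock library 2 were higher, without either skip-1 mock library 10, and without 1 ABA library 2, 2, 2 and 2.

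Clock and flowering genes differed in both directions. Their counts stand beside 13.6% of all tested features called higher and 17.4% called lower. The hour of harvest is not given in the labels. Of 21 clock genes, 8 were called higher and 4 lower (4, 3, 2 and 5 higher and 2, 2, 2 and 3 lower with 1 library left out). ELF4, of the evening complex, was at 361 and 224 CPM in wild type and 52.6 and 64.5 CPM in skip-1 (−2.32 ± 0.29, adjusted p = 0.00207). PRR3 was at 40.7 and 28.6 CPM in wild type and 12.8 and 17.6 CPM in skip-1 (−1.19 ± 0.20, adjusted p = 0.00409), whereas PRR5 was at 45.8 and 25.5 CPM in wild type and 115 and 139 CPM in skip-1 (1.83 ± 0.32, adjusted p = 0.00761). LHY, a morning gene, was at 0.99 and 1.2 CPM in wild type and 4.74 and 5.36 CPM in skip-1 (2.2 ± 0.44, adjusted p = 0.0076). ELF4 and PRR3 were lower and PRR5 and LHY higher in both skip-1 libraries. The call of LHY was lost without wild type ABA replicate 1, where adjusted p reached at most 0.0597. Of 18 tested flowering time genes, 4 were higher and 7 lower (0, 1, 1 and 2 and 5, 5, 5 and 4 with 1 library left out). The floral repressor gene FLC was at 1.73 and 2.3 CPM in wild type and 0.182 and 0.273 CPM in skip-1 (−3.11 ± 0.45, adjusted p = 0.00192), and the florigen gene FT at 7.22 and 7.78 CPM in wild type and 1.91 and 2.41 CPM in skip-1 (−1.79 ± 0.22, adjusted p = 0.000913). A repressor and an inducer of flowering were thus both lower. JMJD5, a jumonji-domain gene linked to the clock and among the largest decreases, was at 129 and 155 CPM in wild type and 13.8 and 25.2 CPM in skip-1 (−2.86 ± 0.37, adjusted p = 0.00296).

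Listed genes of the splicing machinery, to which SKIP belongs, and of related RNA binding differed by less than 2-fold in every tested member. The name other spliceosome genes is used below for a broad list that is not limited to core components. The counts below stand beside 13.6% of all tested features called higher and 17.4% called lower. Of 20 SR splicing factor genes, 5 were called higher and 1 lower, with a median of 0.16 (1, 3, 2 and 1 higher with 1 library left out). With library-size scaling 9 were higher and none lower. RSZ33 was at 70.0 and 78.6 CPM in wild type and 103 and 112 CPM in skip-1 (0.53 ± 0.11, adjusted p = 0.00813). The call of RSZ33 was lost without wild type ABA replicate 1 or skip-1 ABA replicate 2, where adjusted p reached at most 0.0632. Of 32 other spliceosome genes, 3 were higher and 1 lower (2, 1, 1 and 1 higher with 1 library left out), while 11 were higher with library-size and 8 with upper-quartile scaling. U2AF65B, which helps to recognise the end of introns, was at 64.1 and 62.0 CPM in wild type and 85.0 and 87.6 CPM in skip-1 (0.45 ± 0.08, adjusted p = 0.00526). LSM4 was the member called lower, at 54.4 and 58.1 CPM in wild type and 40.2 and 41.7 CPM in skip-1 (−0.46 ± 0.09, adjusted p = 0.00667). The call of LSM4 was lost without skip-1 ABA replicate 1, where adjusted p reached at most 0.0503. Of 6 Paf1 complex genes, VIP5 was called higher (0.36 ± 0.10, adjusted p = 0.0228), and none lower. With library-size or upper-quartile scaling 3 were higher, and by DESeq2 none. The call of VIP5 was lost without wild type ABA replicate 1, skip-1 ABA replicate 1 or skip-1 ABA replicate 2, where adjusted p reached at most 0.122, and also by DESeq2.

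Of 30 expansin and XTH genes, which loosen or remodel cell walls, 9 were higher and 2 lower, against 13.6% and 17.4% of all tested features (7, 5, 5 and 8 higher with 1 library left out). With library-size scaling 13 were higher and none lower. XTH25 was at 0.841 and 0.627 CPM in wild type and 7.65 and 9.54 CPM in skip-1 (3.54 ± 0.48, adjusted p = 0.00174), and EXPA6 at 41.9 and 37.2 CPM in wild type and 72.6 and 64.8 CPM in skip-1 (0.80 ± 0.11, adjusted p = 0.00139). Of 26 tested Aux/IAA genes, 6 were higher and 1 lower (3, 7, 5 and 4 higher with 1 library left out), with IAA4 at 16.9 and 24.0 CPM in wild type and 41.9 and 43.7 CPM in skip-1 (1.07 ± 0.15, adjusted p = 0.00169). IAA20 had no read in wild type and 23 in skip-1, a level at least 6.86-fold higher when 3 counts over both wild type libraries are taken as the floor. These 3 genes and IAA20 were higher in both skip-1 libraries. Of 9 tested type-A response regulators, which dampen cytokinin signals, 4 were higher and none lower (2, 2, 1 and 3 with 1 library left out), with ARR5 at 1.63 and 1.41 CPM in wild type and 4.46 and 3.68 CPM in skip-1 (1.42 ± 0.22, adjusted p = 0.00238). Of 23 cell division genes, 6 were higher and 2 lower, and 1 was higher without any 1 of the ABA libraries. The median of the cell division genes was 0.25, and 13.6% of all tested features were higher and 17.4% lower. SIM, an inhibitor of mitotic cycling, was among the 2 called lower, at 19.3 and 19.2 CPM in wild type and 9.93 and 9.59 CPM in skip-1 (−0.98 ± 0.16, adjusted p = 0.00277).

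By the rule for named genes, the largest increase was that of AT1G13609 (TAIR10.1 chromosome 1, 4662698 to 4663253, plus strand), a defensin-like gene, at 1.09 and 0.522 CPM in wild type and 266 and 203 CPM in skip-1 (8.17 ± 1.21, adjusted p = 0.0052). bHLH38 came second. The RefSeq annotation used here calls AT1G47395 and AT1G47400 uncharacterized proteins, which says nothing of what is known of them elsewhere. Their log2 fold changes were 5.97 ± 0.71 and 4.74 ± 0.71. The lectin gene AT1G52000 was at 16.1 and 29.6 CPM in wild type and 619 and 800.4 CPM in skip-1 (4.96 ± 0.33, adjusted p = 0.000276). MBP1, a myrosinase-binding protein gene, was at 3.61 and 5.07 CPM in wild type and 60.3 and 66.1 CPM in skip-1 (3.87 ± 0.22, adjusted p = 7.73e-05), and JAL23, another jacalin-related lectin gene, at 1.73 and 1.51 CPM in wild type and 29.6 and 29.3 CPM in skip-1 (4.18 ± 0.27, adjusted p = 0.000116). In these 3 lectin genes the libraries of the genotypes were far apart, but groups without overlap were a condition of this ranking. AT2G16367, AT5G62280 (a DUF1442 gene) and the MATE efflux gene AT2G04050 had 5.52 ± 0.74, 4.66 ± 0.33 and 4.61 ± 0.38. AT5G02760, a PP2C family gene outside clade A, the TRAF-like gene AT3G28220, AT4G12735 and AT2G14247 had 4.38 ± 0.63, 3.86 ± 0.47, 3.99 ± 0.28 and 4.16 ± 0.72. The call of AT2G14247 was lost without wild type ABA replicate 2, where adjusted p reached at most 0.0504.

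The largest decrease was that of AT4G04410 (TAIR10.1 chromosome 4, 2189515 to 2193763, plus strand), annotated only as uncharacterized, at 34.0 and 29.3 CPM in wild type and 0.41 and 0.454 CPM in skip-1 (−6.18 ± 0.19, adjusted p = 4.37e-06). MLP329, a major latex protein-like gene, was at 45.9 and 51.9 CPM in wild type and 4.33 and 5.45 CPM in skip-1 (−3.32 ± 0.18, adjusted p = 6.73e-05). NADP-ME1, a malic enzyme gene, was at 61.1 and 53.5 CPM in wild type and 10.3 and 6.41 CPM in skip-1 (−2.78 ± 0.23, adjusted p = 0.000272). Both skip-1 libraries were far under both wild type libraries in each, where groups without overlap were likewise a condition of the ranking. The glycine-rich gene GRP3S was among the largest losses in reads, at 2396 and 2646 CPM in wild type and 462 and 478 CPM in skip-1 (−2.42 ± 0.38, adjusted p = 0.00493), and its family member AT2G05510 had −3.23 ± 0.38. The oxidoreductase gene AT5G51950, the jumonji gene AT4G00990, the threonine aldolase gene THA1, AT1G30250 and AT1G61255 had −2.94 ± 0.31, −2.79 ± 0.16, −3.1 ± 0.60, −3.38 ± 0.51 and −2.74 ± 0.25. Passing the threshold was a condition for naming all of these. The call of THA1 was lost without skip-1 ABA replicate 1 or skip-1 ABA replicate 2, where adjusted p reached at most 0.0753. Large losses in reads were also those of AT1G13930 (−1.38 ± 0.11), the thiamine synthesis gene THI1 (−0.67 ± 0.11) and the arginine decarboxylase gene ADC2 (−0.47 ± 0.14). The call of ADC2 was lost without any 1 of the 4 ABA libraries or skip-1 mock replicate 2, where adjusted p reached at most 0.136, and also with library-size scaling and with upper-quartile scaling.

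**Figure D4:**
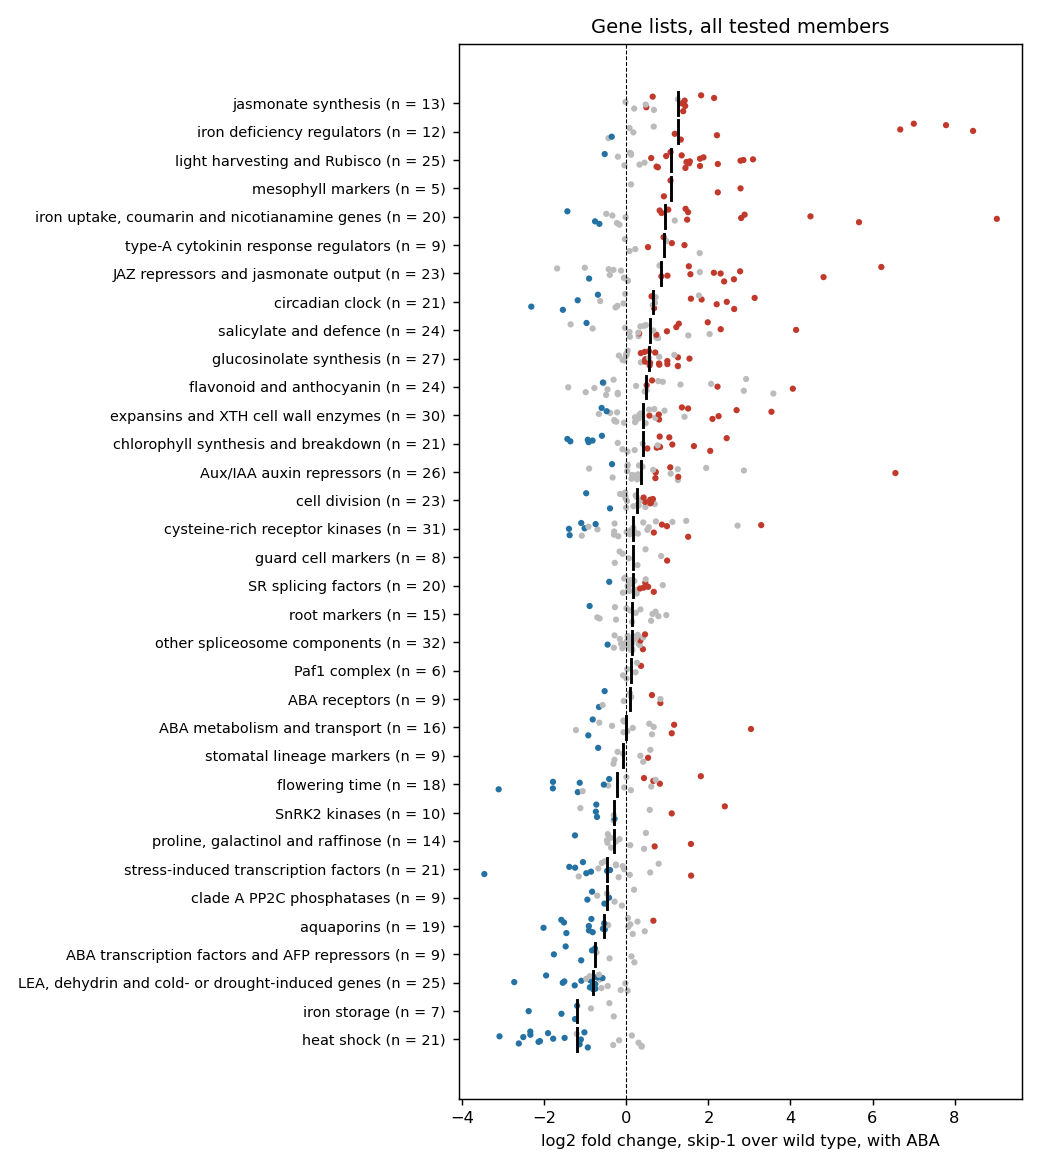
Log2 fold change of skip-1 over wild type with ABA for every tested member of each list with at least 5 tested members, ordered by median. Red points were called higher, blue lower and grey neither, black bars are list medians, and the dashed line is the median of −0.02 over all tested features. Heat shock, iron storage and LEA genes lie at the bottom, and jasmonate synthesis, iron regulators and light harvesting at the top. The points for IRT1, bHLH100, CYP82C4, THI2.1, IAA20 and MYB113 are fitted values that depend on the prior count.

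The genotype difference with ABA was set beside that without ABA, which comes from 4 other libraries. Without ABA, 4297 features (20.5%) were called, 2195 (10.4%) higher and 2102 (10.0%) lower. Of those called higher with ABA, 1192 were also higher without it, which is 41.8% of the first list and 54.3% of the second. Of those called lower, 1236 were shared, 33.9% and 58.8% of the lists. Opposite calls were few, with 25 features higher with ABA and lower without, and 98 lower with and higher without. Across all tested features, which are not independent replicates, Pearson's r between both sets of fold changes was 0.615 and Spearman's rho was 0.557, while 70.6% of the features moved to the same side. The difference between both genotype contrasts (the interaction) was called for 644 features (3.07%), 168 (0.8%) higher and 476 (2.27%) lower in skip-1 with ABA than the contrast without it. With library-size scaling 297 were higher and 238 lower, and with upper-quartile scaling 211 were higher and 333 lower. Of the 6504 features called with ABA, 517 had a called interaction. With 1 library left out the interaction calls ranged from 121 to 608.

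Aquaporins were the list with the most such calls, 9 of 19, all lower, against 2.27% of all features. PIP2;3 had a log2 fold change of −0.39 ± 0.13 without ABA and −2.02 ± 0.13 with it, and their difference was −1.63 ± 0.18 (adjusted p = 0.00711). TIP2;2 had 0.35 ± 0.18 and −1.59 ± 0.18 (adjusted p = 0.0111 for the difference). Neither gene passed without the hormone (adjusted p = 0.0664 and 0.206), and both were lower with it. For the PP2C gene HAB2 the values were 0.51 ± 0.10 and −0.42 ± 0.09 (adjusted p = 0.0128), a change of sign between called differences on the TMM scale. As given above, the call of HAB2 with ABA was lost with library-size scaling. The drought-induced gene RD22 had 0.79 ± 0.14 and −0.80 ± 0.14 (adjusted p = 0.00778), and ZAT10 had 1.59 ± 0.20 and −1.06 ± 0.18 (adjusted p = 0.00581). In these 3 genes skip-1 was above wild type without ABA and below it with ABA. XTH25 went the other way, with −0.63 ± 0.50 and 3.54 ± 0.48 (adjusted p = 0.0244). Of the LEA list 3 of 25 had a called interaction, of heat shock genes 3 of 21, and of iron regulators and clock genes none. For bHLH38 the values were 6.53 ± 0.55 and 7.79 ± 0.70, and for LHCB4.2 1.57 ± 0.12 and 1.88 ± 0.12. Both genes were also called higher without the hormone, and their interactions did not pass (adjusted p = 0.576 and 0.35).

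**Figure D5:**
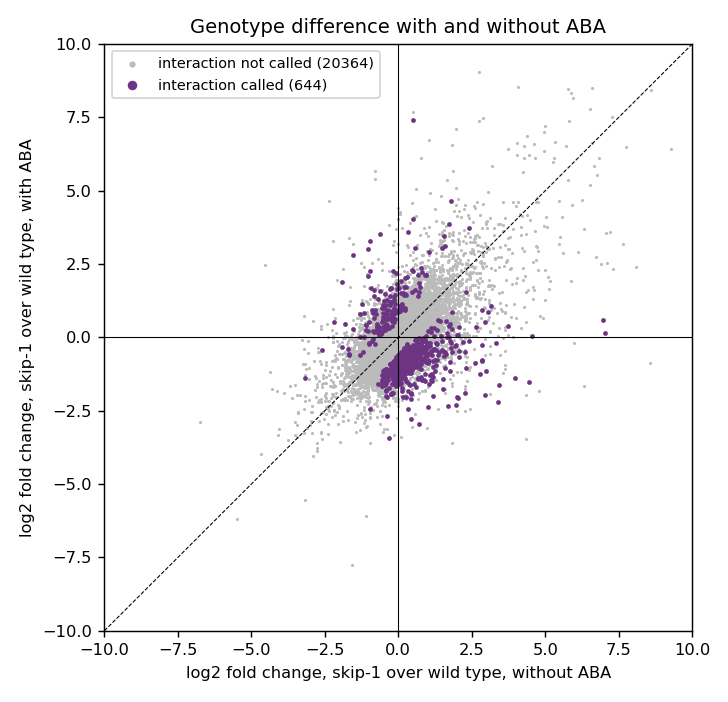
Log2 fold change of skip-1 over wild type without ABA (horizontal axis) and with ABA (vertical axis) for all tested features. Purple points are the 644 features with a called interaction, grey points the other features, and the dashed line marks equal values. Purple points below the line, with a lower value with ABA, outnumber those above it (476 and 168), whereas with library-size scaling 297 were higher and 238 lower.

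The direction of the difference varied with the exon number and level of genes. Among 3161 genes annotated with 1 exon, 25.1% were called lower and 7.88% higher in skip-1, with a median of −0.29. Among 6052 genes with 3 to 5 exons, 15.5% were lower and 15.5% higher, with a median of 0.02. Single-exon genes also had fewer reads, with a median log2 CPM of 2.2 against 3.88. Within the 25% of genes with the highest mean log2 CPM, 47.0% of 349 single-exon genes were lower and 7.16% higher, against 28.9% and 10.8% of 1524 genes with 3 to 5 exons. With library-size scaling the single-exon shares were 19.8% lower and 9.62% higher, and those for 3 to 5 exons 10.4% and 21.9%. Leaving out 1 ABA library gave 15.4% to 16.1% of single-exon genes lower and 3.86% to 5.44% higher. Single-exon genes named above include LEA18, CBF4, HSP17.6II and AT1G07400. LHCB1.5 and LHCB1.2 also have 1 exon and were higher. By chromosome, 30.0% to 31.7% of genes were called.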

How the data were processed

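RNA sequencing of 8 seedling libraries was deposited by the authors as raw read counts per gene and as FPKM. FPKM in the deposited table equalled count divided by gene length and column total for all genes within 0.1%. The submitters' processing notes name TAIR10 as the build, TopHat2 2.0.12, HTSeq 0.6.1 and Bowtie2 2.2.3. Their options and the strand setting are not given here, so counts of overlapping genes and of antisense pairs are uncertain. Names and positions came from RefSeq TAIR10.1, which matched 32835 of 33674 features, and the others kept their identifiers.

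The count analysis used edgeR 4.0.16 (R 4.3.3): expression filter by group, TMM scaling, and a robust quasi-likelihood fit of all 8 libraries with 1 coefficient per group (4 residual degrees of freedom), F tests and Benjamini-Hochberg adjustment. SE is the absolute log2 fold change over the square root of F and is approximate. CPM use the TMM-scaled library sizes. Intervals and floors cover counting error only. No pair of replicates within a group was a duplicate: their counts differed by a chi-square per degree of freedom of 15.4 to 25.7. On simulated counts 69 of 100 2-fold and 93 of 100 4-fold changes were recovered with 15 false calls. Only these genes were changed, none of them with few reads, and only in the skip-1 ABA libraries. The simulation held no other effect of genotype or ABA, so its rates need not hold for these data. Alternatives were DESeq2 1.42.0, RLE, library-size and upper-quartile scaling, no filter and a stricter filter, the ABA libraries alone, a replicate block, and each library left out.

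Members and the 36 lists (645 genes) were chosen with earlier results of these data known. Named were SKIP, the 15 largest increases and 15 largest decreases (called, mean log2 CPM of at least 2, groups not overlapping), the 6 largest CPM differences each way and up to 4 members per list with the smallest adjusted p. Further list members, such as those that went against their list, were named after their values were seen.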

Additional observations from a re-analysis of the deposited data

Results flagged for a closer look

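For 55 named or listed genes, the genotype difference with ABA departed from that without ABA by the interaction test (edgeR adjusted p below 0.05). Of all tested features, 3.07% had a called interaction, 0.8% higher and 2.27% lower. The lists held 604 tested genes, chosen with earlier results of these data known. Genes named outside the lists were picked for large differences with ABA, so the count of 55 is not comparable with that share. Values in brackets are the log2 difference between both contrasts, and a negative value means that skip-1 stood lower against wild type with ABA than without it.

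Of the ABA pathway, the phosphatase genes HAB1 (−1.48), HAB2 (−0.93) and ABI2 (−1.34) and the transcription factor gene ABF3 (−1.23) had negative values, and the receptor genes PYL4 (2.01) and PYL8 (1.03) positive ones. Among ABA- and drought-responsive genes these were RD20 (−1.32), RD22 (−1.59), LTP3 (−2.70), HB7 (−1.99), HB12 (−1.43), MYB74 (−2.08) and ZAT10 (−2.65). In metabolism they were BGLU18 (1.56), P5CS1 (−2.53), GOLS2 (−1.91), TT5 (−1.50), NADP-ME1 (−3.20) and NYE1 (−1.32). Water channel genes gave PIP1A (−1.15), PIP1B (−0.85), PIP1;4 (−1.32), PIP2A (−1.13), PIP2B (−1.10), PIP2;3 (−1.63), PIP2;5 (−1.40), GAMMA-TIP (−1.03) and TIP2;2 (−1.94). Heat shock genes gave HSP17.4 (−5.95), HSFB2A (−1.26), BOB1 (−0.86) and AT1G07400 (−3.10). HSP17.4 had 1 read over both wild type libraries without ABA, so its value depends on the prior count. Iron genes gave F6'H1 (−1.79), NRAMP4 (−0.95), VTL5 (2.19) and FRO6 (1.31). Genes of growth and hormone response gave EXPA1 (−1.28), EXPA4 (−0.80), XTH15 (3.20), XTH25 (4.17), IAA4 (1.02), IAA27 (1.24) and ARR5 (1.70). Genes of defence gave CYP79B3 (1.55), CYP83B1 (0.87), MAM3 (0.84), MBP1 (2.13), VSP1 (1.44), CRK19 (0.94) and CRK28 (1.77). The remaining values were those of SOC1 (−1.02), LHCB1.4 (1.23), OLEO4 (−2.29), AT5G51950 (−3.64) and AT5G62280 (2.88). Groups of 2 libraries allow no check for single outlying libraries.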

How the results depend on the processing

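Of 297 named or listed genes called with ABA, 153 kept their call and direction under every alternative run, and none reversed. Calls lost were 20 with DESeq2, 26 with library-size scaling, 16 with upper-quartile scaling, 3 with RLE scaling, 17 with no filter, 1 of 291 with the stricter filter, 18 of 295 with the ABA libraries alone and 4 with the replicate block. Leaving out 1 ABA library lost 94 to 105, and leaving out 1 library without ABA lost 7 to 17. A group left with 1 library was assumed to vary like the others. With 1 library left out, calls with ABA ranged from 3521 to 6851, those higher from 1384 to 3391, those lower from 2016 to 3857, and those at least 2-fold from 1618 to 2315. Calls without ABA ranged from 1383 to 3785, those higher from 672 to 1884 and those lower from 711 to 1917. Interaction calls ranged from 121 to 608, those higher from 25 to 186 and those lower from 96 to 465. By DESeq2 the interaction gave 1201 calls, 376 higher and 825 lower, and with library-size scaling 297 higher and 238 lower. The labels do not say that equal replicate numbers were handled together, and deviations of equal numbers correlated at 0.111 to 0.258 over 6 pairs of groups. With the replicate block, 7735 features were called with ABA, the interaction gave 1357 calls (422 higher, 935 lower), and SKIP passed at −0.35 (edgeR adjusted p = 0.0152). Of the proline, galactinol and raffinose genes, 2 were higher and 5 lower with the block. Few reads in wild type limit the precision of folds such as that of IRT1, and the cause of the other changes was not tested.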
